A study of Mus musculus with 4 samples.

Results

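Interferon-stimulated effector genes encode the proteins that carry out the cell's antiviral programme, and 50 of them were listed by name across 13 classes of protein. A gene was measured by the probe set with the highest mean among those that the platform annotation ties to it alone, which left 42 of the 50 genes, out of 19938 genes measured in this way. Of the other 8 genes, Isg15, Irgm2, Igtp, Ifi47, Gbp2 and Gbp6 had only a probe set shared with other genes, and Ly6a and Ifi44 had none listed. They are not analysed here. The values come from DN4 thymocytes, the last immature thymic stage without CD4 and CD8, taken by sorting from 4 mice. All 4 carried floxed Ikzf1, which encodes the transcription factor Ikaros. They received tamoxifen at 50 mg/kg once a day on 4 days, and thymocytes were taken 24 h past the final dose. The 2 Cre+ mice (129 and 135) were Ikf/f Rosa26-CreERT2+, so that a tamoxifen-activated recombinase made from the broadly active Rosa26 locus could delete the floxed part in all tissues that express it, not in thymocytes alone. The 2 Cre- mice (131 and 137) were Ikf/f without the recombinase, so that loss of Ikaros and presence of an active recombinase cannot be told apart. Each mouse gave 1 array. The treatment text names the Cre+ genotype for all 4 samples, and the groups were taken from the sample titles. No source used here gives the strain or the age.

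Type I interferons bind the receptor chains IFNAR1 and IFNAR2 and activate the JAK kinases, which switch on a transcription factor complex that contains IRF9. The complex binds the interferon-stimulated response element (ISRE) near the start of its target genes. Interferon gamma acts through another receptor and the gamma interferon activated site (GAS) in DNA, and it is the stronger inducer of many GTPase and antigen processing genes. The thymus is known to contain a low constitutive interferon signal made by its epithelium, to which developing T cells respond. Ikaros binds DNA through zinc fingers and is known both to repress and to activate genes in lymphocytes.

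The promoter windows of the listed genes are shown first because the response element is what the group is known to share. RefSeq (GRCm38.p6) windows of 300 bases, from 250 before to 50 after the start of transcription, were available for 36 of the 50 genes. The core of the response element was searched as GAAA, any 2 bases and GAAA on both strands, with overlapping matches counted separately. It was present in 16 of these 36 genes (44.4%), against 1079 of all 27025 genes of the table (3.99%). The 25 matches began between positions -156 and 19 relative to the start of transcription, and 23 of them lay before it. Because 250 of the 300 bases of a window lie before the start, that count alone shows no preference for a side. The GAS letters TTCNNNGAA, which read the same pattern on both strands, were present in 12 genes (33.3%), against 9.55% of all genes. TGGGAA, a core of sequences bound by Ikaros proteins, searched on both strands, was present in 16 genes (44.4%), against 28.3% of all genes. These are matches of letters in a window, not binding sites. The windows below belong to the gene with the smallest p-value and a match in each of 7 classes. They are written 5′ to 3′ along the gene, with capitals marking the response element core on either strand.
Eif2ak2, chr17:78882523-78882822, minus strand: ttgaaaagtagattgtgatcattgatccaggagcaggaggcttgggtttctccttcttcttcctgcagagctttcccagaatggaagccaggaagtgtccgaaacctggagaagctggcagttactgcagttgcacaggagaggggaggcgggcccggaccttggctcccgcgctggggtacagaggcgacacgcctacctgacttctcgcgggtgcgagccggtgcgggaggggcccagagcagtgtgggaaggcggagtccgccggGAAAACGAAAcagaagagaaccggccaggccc
Oas1a, chr5:120907476-120907775, minus strand: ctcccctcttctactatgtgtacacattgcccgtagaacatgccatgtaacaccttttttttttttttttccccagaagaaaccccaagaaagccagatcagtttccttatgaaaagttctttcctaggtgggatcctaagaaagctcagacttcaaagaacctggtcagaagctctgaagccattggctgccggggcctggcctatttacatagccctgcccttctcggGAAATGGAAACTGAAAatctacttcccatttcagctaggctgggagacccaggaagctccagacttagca
Trim30a, chr7:104465144-104465443, minus strand: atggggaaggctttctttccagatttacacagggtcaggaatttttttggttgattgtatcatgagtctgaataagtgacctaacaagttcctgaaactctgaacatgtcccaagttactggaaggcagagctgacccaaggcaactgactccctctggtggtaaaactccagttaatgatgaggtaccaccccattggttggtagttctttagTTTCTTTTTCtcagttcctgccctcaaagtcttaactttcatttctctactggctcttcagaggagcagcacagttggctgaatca
Irgm1, chr11:48871371-48871670, minus strand: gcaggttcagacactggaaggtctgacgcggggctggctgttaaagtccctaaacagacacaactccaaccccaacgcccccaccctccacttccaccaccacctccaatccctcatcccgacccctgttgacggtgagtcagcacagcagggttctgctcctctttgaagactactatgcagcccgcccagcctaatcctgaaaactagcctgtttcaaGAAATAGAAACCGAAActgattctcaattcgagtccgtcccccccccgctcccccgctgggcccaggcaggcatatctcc
Rsad2, chr12:26456403-26456702, minus strand: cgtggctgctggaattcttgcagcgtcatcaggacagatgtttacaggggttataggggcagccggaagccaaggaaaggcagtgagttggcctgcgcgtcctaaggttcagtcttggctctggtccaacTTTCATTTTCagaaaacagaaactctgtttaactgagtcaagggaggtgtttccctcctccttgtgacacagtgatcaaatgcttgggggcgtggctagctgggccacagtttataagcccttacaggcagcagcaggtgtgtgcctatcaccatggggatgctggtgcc
Ifit1, chr19:34640639-34640938, plus strand: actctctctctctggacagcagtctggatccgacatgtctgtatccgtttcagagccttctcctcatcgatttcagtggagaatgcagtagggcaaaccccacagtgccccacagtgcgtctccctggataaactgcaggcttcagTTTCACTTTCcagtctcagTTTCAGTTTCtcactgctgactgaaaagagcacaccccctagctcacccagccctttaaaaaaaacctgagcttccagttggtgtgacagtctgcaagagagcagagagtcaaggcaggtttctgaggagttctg
Gbp7, chr3:142530086-142530385, plus strand: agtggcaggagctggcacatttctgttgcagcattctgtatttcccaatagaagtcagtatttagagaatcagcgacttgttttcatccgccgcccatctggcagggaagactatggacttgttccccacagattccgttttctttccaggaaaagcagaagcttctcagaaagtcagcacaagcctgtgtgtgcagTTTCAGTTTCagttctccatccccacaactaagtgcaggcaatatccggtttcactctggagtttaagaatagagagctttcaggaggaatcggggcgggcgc
In Oas1a and Irgm1 the capitals hold 2 overlapping cores, and in Ifit1 there are 2 separate cores, beginning at positions -104 and -85. The single cores of Trim30a, Gbp7 and Rsad2 begin at -36, -53 and -120, and that of Eif2ak2 begins at 19, within the transcribed part.

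**Figure D1:**
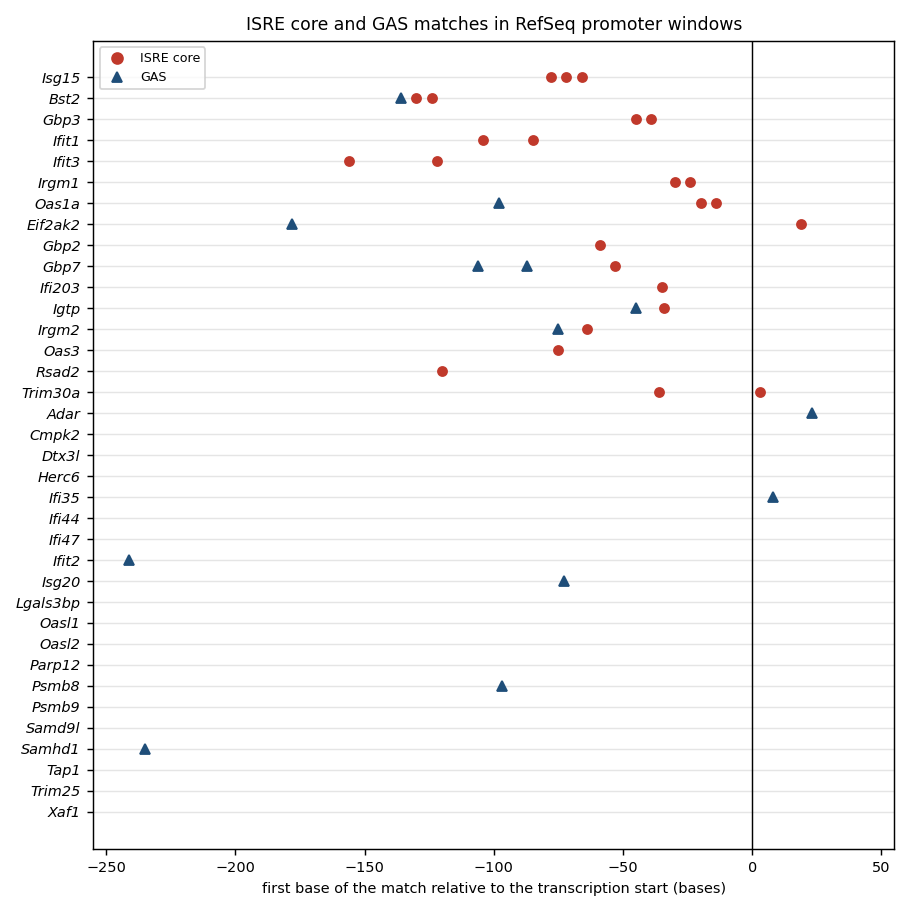
Positions of response element cores (ISRE, circles) and GAS matches (triangles) in the promoter windows of 36 listed genes, 1 row per gene, in bases from the start of transcription (vertical line); matches in several windows of a gene are drawn on its row. The circles gather before the start, with 23 of 25 there, and 20 genes have none.

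Most of the effector genes were higher in the Cre+ mice, and by more in mouse 129 than in mouse 135. Of the 42 genes, 38 had a higher mean in the Cre+ mice, against 45.9% of all genes. In 30 of them both Cre+ values lay above both Cre- values, which was so for 16.1% of all genes. In 1 gene, Psmb8, both Cre+ values lay below (20.3% of all genes), and in 11 the groups overlapped. The median difference, Cre+ minus Cre-, was 0.38 on the log2 scale (1.30-fold) over the 42 genes and -0.01 over all genes. A difference above 0.5 was found in 19 of the 42 genes, against 1.24% of all genes. The largest differences were those of Oasl2 (2.13, 4.39-fold), Iigp1 (1.78) and Ifit1 (1.62, 3.06-fold). In a bulk sample, a higher level in each cell and a larger number of expressing cells cannot be told apart.

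No gene of the list passed limma's threshold of an adjusted p of 0.05 over all 35556 probe sets, where 0 probe sets passed (0%) and 2356 had an unadjusted p under 0.05. The smallest adjusted p of the list was 0.240, for Eif2ak2. At an unadjusted p under 0.05, 19 of the 42 genes were higher in the Cre+ mice, against 4.12% of all genes, and 0 were lower, against 2.74%. When limma was run on the 21789 probe sets that carry a single symbol (the restricted test), 4 genes passed, namely Eif2ak2, Oas1a, Ifi203 and Irgm1, against 0.953% of all genes that passed as higher (0.936% of probe sets). None of these 4 passed in that test without mouse 129, where 5 others did (Iigp1, Oas2, Oasl2, Rtp4 and Usp18) and 0.633% of all probe sets tested were called in either direction. Without mouse 135 that test called 27 genes of the list (1.27% of probe sets), and without mouse 131 it called 9 (2.2%), each time including all 4. Without mouse 137 it called 4 (1.77%), with Xaf1 in place of Ifi203. With sex as a block it called 20 (2.59%), including all 4, and without an intensity trend Eif2ak2 alone (0.597%). The mice are separate animals, and with 2 against 2 no exact two-sided permutation test can give a p under 0.333.

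**Figure D2:**
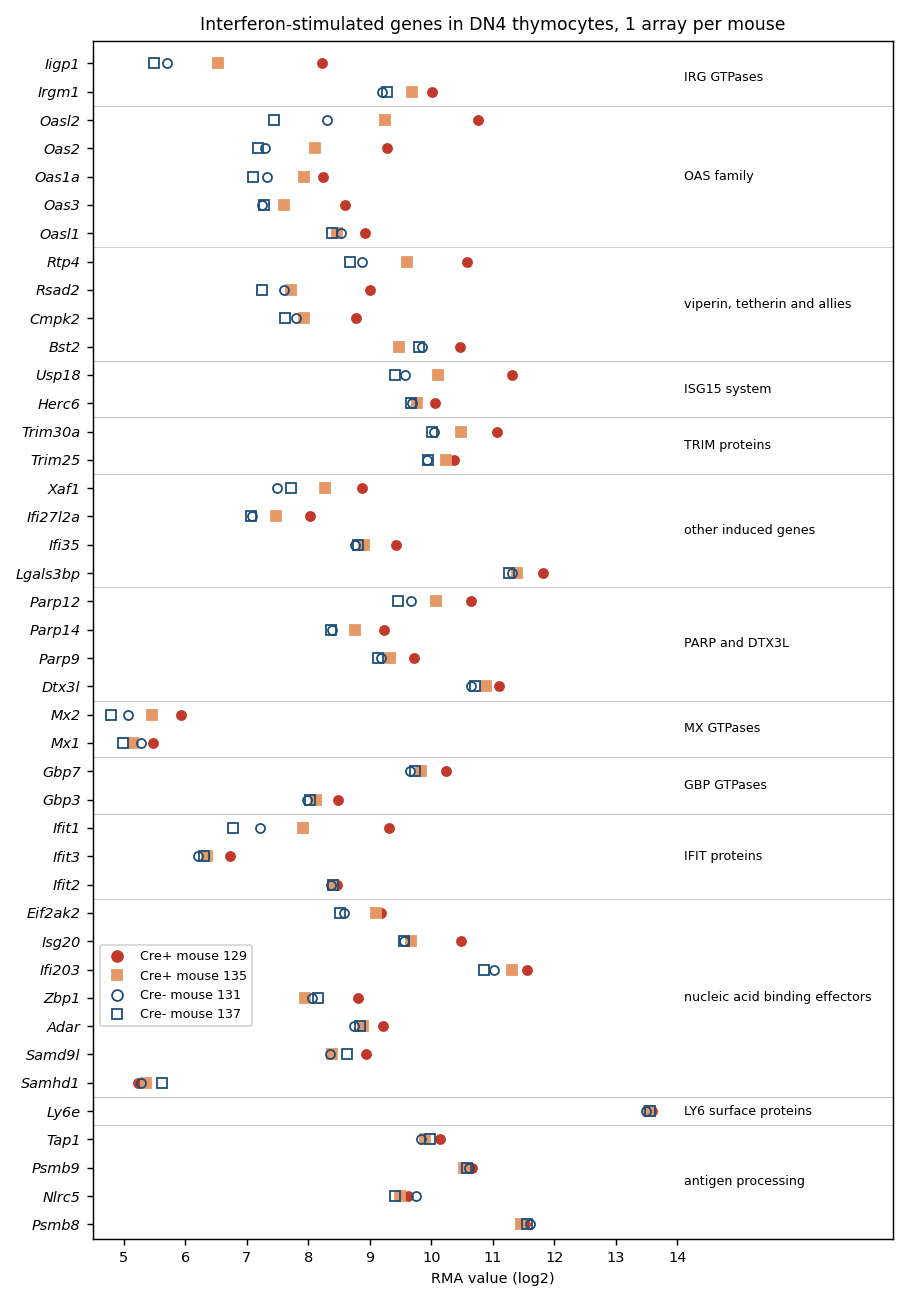
RMA values (log2) of the 42 measured genes, 1 row per gene and 1 point per mouse (filled, Cre+; open, Cre-), grouped by class and ordered by the class median of the difference. In 30 rows both filled points lie to the right of both open points, and mouse 129 is usually the farthest right.

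Mouse 129 and mouse 135 were each set against the Cre- mean. Their median over the 42 genes was 0.64 in mouse 129 (1.56-fold) and 0.19 in mouse 135 (1.14-fold), against -0.01 in both over all genes. Mouse 129 was above the Cre- mean in 40 genes (47.8% of all genes) and mouse 135 in 34 (46.4% of all genes), and in these 34 both were above it (29.8% of all genes). Mouse 129 was above mouse 135 in 41 of the 42 genes, Samhd1 being the exception, while it was above in 50.7% of all genes. The 41 include the 30 genes with both Cre+ values above both Cre- values (16.1% of all genes). In those 30 genes mouse 135 thus lay between mouse 129 and both Cre- mice. Of the 26 genes more than 0.5 above the Cre- mean in mouse 129, 11 were so in mouse 135 as well. These 11 were all the genes that far above it in mouse 135. Across the 26 genes the difference in mouse 135 was a median 0.40 of that in mouse 129, from -0.55 for Bst2 to 0.86 for Eif2ak2. Because the 26 were chosen by their values in mouse 129, the choice by itself lowers this ratio. Between the Cre- mice the median difference over the 42 genes was 0.03 (mouse 131 minus mouse 137), from -0.35 for Samhd1 to 0.87 for Oasl2. For Oasl2, Iigp1 and Ifit1, the genes with the largest Cre+ differences, it was 0.87, 0.22 and 0.45.

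**Figure D3:**
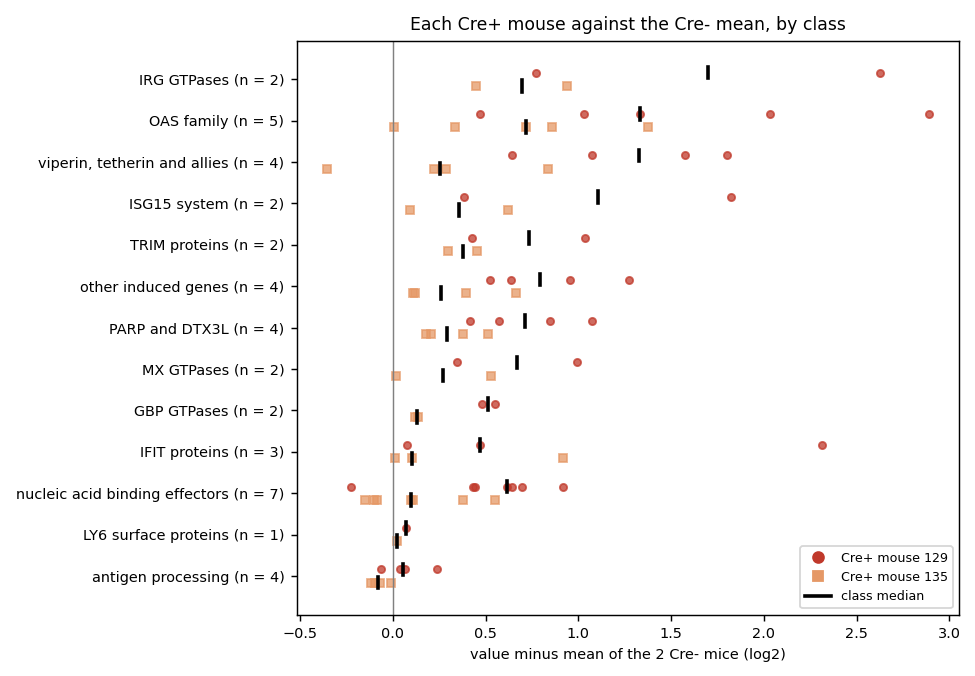
Value of each Cre+ mouse minus the mean of the 2 Cre- mice (log2), 1 point per gene, by class, with the class median as a black bar. Class medians of mouse 129 lie to the right of those of mouse 135 in all 13 classes, and only the antigen processing class has its mouse 135 median below 0.

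The oligoadenylate synthetase family, whose enzymes make the 2-5A that switches on RNase L, was among the highest classes in both Cre+ mice, with medians of 1.33 in mouse 129 and 0.72 in mouse 135 over 5 genes. Oas1a, a catalytic member, read 8.24 and 7.93 in Cre+ mice, against 7.33 and 7.09 in Cre- mice. The Cre+ mice lay close together and clear of the Cre- mice, a difference of 0.87 (SE 0.15, limma adjusted p = 0.327 over all probe sets and 0.0237 in the restricted test). Oasl2, an oligoadenylate synthetase-like protein with ubiquitin-like domains, read 10.76 and 9.24 in Cre+ mice, against 8.30 and 7.43 in Cre- mice. Its groups did not overlap, but the mice differed within both groups, and the difference of 2.13 (SE 0.56) had an adjusted p = 0.522 by limma. Oas2 and Oas3 differed by 1.45 and 0.83 without overlap, while Oasl1, at 8.46 in mouse 135 and 8.53 in Cre- mouse 131, overlapped.

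The immunity-related GTPases act on the membranes of vacuoles that hold pathogens, and 2 of the 5 listed were measured. Irgm1, a regulator of the other family members, read 10.01 and 9.68 in Cre+ mice, against 9.20 and 9.27 in Cre- mice. The difference was 0.61 (SE 0.12, limma adjusted p = 0.391 over all probe sets and 0.0453 in the restricted test). Iigp1, an effector GTPase of this family, read 8.22 and 6.53 in Cre+ mice, against 5.70 and 5.48 in Cre- mice. It was 2.63 above the Cre- mean in mouse 129 and 0.94 above it in mouse 135 on the log2 scale, and its dim Cre- values make a fold uncertain. For the whole difference of Iigp1 (1.78, SE 0.55) limma gave an adjusted p = 0.610. The guanylate-binding proteins, a second GTPase family active at pathogen membranes, differed less. Gbp7 read 10.24 and 9.83 in Cre+ mice, against 9.64 and 9.74 in Cre- mice, and Gbp3 8.48 and 8.12 in Cre+ mice, against 7.97 and 8.03 in Cre- mice. Mouse 129 stood apart in both genes, while mouse 135 was above the Cre- mean by 0.14 and 0.12. The dynamin-like MX GTPases were dim. Mx2 read 5.92 and 5.46 in Cre+ mice, against 5.06 and 4.80 in Cre- mice, without overlap (0.76, SE 0.19). Mx1, which is defective in most inbred laboratory strains, read 5.48 and 5.15 in Cre+ mice, against 5.28 and 4.99 in Cre- mice and overlapped. For scale, Xist was at 5.29 and 4.93 in mice 135 and 137, which by their transcripts were male, so that the MX values lie near those of a silent gene and their folds are uncertain.

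The IFIT proteins, which bind foreign RNA, differed widely among themselves. Ifit1, which recognises the cap of RNA that lacks methylation, read 9.31 and 7.91 in Cre+ mice, against 7.22 and 6.77 in Cre- mice. The difference of 1.62 (SE 0.47) was without overlap, with a limma adjusted p = 0.576. Ifit3, a partner of Ifit1, read 6.72 and 6.35 in Cre+ mice, against 6.20 and 6.30 in Cre- mice, and Ifit2 lay between 8.36 and 8.46 in all 4 mice. The 3 neighbours in function thus differed by 1.62, 0.29 and 0.04 on the same arrays. Ifit3 was dim in all 4 mice, so that its fold is uncertain.

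Of the ISG15 system, which attaches the ubiquitin-like protein ISG15 to other proteins, 2 genes were measured. Usp18, the protease that removes ISG15 and also dampens the type I interferon receptor, read 11.31 and 10.10 in Cre+ mice, against 9.56 and 9.40 in Cre- mice. That is 3.54-fold above the Cre- mean in mouse 129 and 1.54-fold above it in mouse 135 (difference 1.22, SE 0.39, limma adjusted p = 0.644). Herc6, the main ISG15 ligase in mice, read 10.06 and 9.77 in Cre+ mice, against 9.68 and 9.67 in Cre- mice. Mouse 135 was thus only just above the Cre- mice in Herc6.

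Viperin, tetherin and other antiviral proteins had a median difference of 0.79 over 4 genes, which was 0.25 without mouse 129 and 1.33 without mouse 135. Rtp4, a receptor-transporting protein, read 10.58 and 9.61 in Cre+ mice, against 8.87 and 8.68 in Cre- mice, without overlap (1.32, SE 0.32, limma adjusted p = 0.487). Cmpk2, a mitochondrial nucleotide kinase, read 8.78 and 7.93 in Cre+ mice, against 7.80 and 7.61 in Cre- mice. Rsad2 (viperin), its neighbour in the genome and a maker of a chain-terminating nucleotide, differed by 0.93. In both genes mouse 129 stood well above the others and mouse 135 only just above the Cre- mice. Bst2 (tetherin), which holds budding virions at the cell surface, read 10.46 and 9.46 in Cre+ mice, against 9.85 and 9.79 in Cre- mice, so that the 2 Cre+ mice lay on opposite sides of the Cre- mice.

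Among the proteins that bind, edit or degrade nucleic acids, Eif2ak2 had the smallest p-value of the list. It encodes PKR, the kinase that stops translation on sensing double-stranded RNA. It read 9.19 and 9.10 in Cre+ mice, against 8.58 and 8.52 in Cre- mice, with the mice of each group close together (0.59, SE 0.09, limma adjusted p = 0.240 over all probe sets and 0.0187 in the restricted test). Ifi203, of the HIN-200 family of nuclear DNA-binding proteins, read 11.56 and 11.31 in Cre+ mice, against 11.02 and 10.86 in Cre- mice (0.50, SE 0.10, limma adjusted p = 0.390 and 0.0392 in the restricted test). It belongs to a cluster of similar genes, so that signal shared with its relatives cannot be told apart. The exonuclease gene Isg20 and the RNA editor gene Adar differed by 0.51 and 0.27 without overlap, chiefly through mouse 129. Zbp1, a sensor of Z-form nucleic acid, and Samd9l had mouse 129 above and mouse 135 below the Cre- mean. The dNTP hydrolase gene Samhd1 was lower on average (-0.16, SE 0.14) with overlap.

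The PARP genes and Dtx3l covered a narrow range, with medians of 0.71 in mouse 129 and 0.29 in mouse 135 and no overlap in any of the 4 genes. Parp12, a mono-ADP-ribosyltransferase, read 10.64 and 10.07 in Cre+ mice, against 9.66 and 9.46 in Cre- mice (0.79, SE 0.20). Dtx3l, the ligase that pairs with Parp9, read 11.10 and 10.89 in Cre+ mice, against 10.65 and 10.71 in Cre- mice (0.31, SE 0.08). Parp14 and Parp9 differed by 0.61 and 0.38. Of the TRIM ligases, Trim25, which activates RIG-I, read 10.36 and 10.23 in Cre+ mice, against 9.93 and 9.94 in Cre- mice (0.36, SE 0.07). Trim30a, a restrainer of inflammatory signalling, read 11.06 and 10.48 in Cre+ mice, against 10.04 and 10.004 in Cre- mice (0.75, SE 0.19). None of these 6 genes passed limma's restricted test, with adjusted p-values from 0.0621 for Trim25 to 0.316 for Parp9. Among the other induced genes, Xaf1, a pro-apoptotic antagonist of XIAP, read 8.88 and 8.27 in Cre+ mice, against 7.49 and 7.72 in Cre- mice (0.97, SE 0.22). Ifi27l2a, a small mitochondrial membrane protein gene, read 8.02 and 7.46 in Cre+ mice, against 7.08 and 7.06 in Cre- mice (0.67, SE 0.20). Ifi35 and Lgals3bp, which encodes a secreted glycoprotein, differed by 0.38 and 0.32 without overlap.

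Genes of class I antigen processing did not share these differences. They are basally expressed in lymphocytes, and here their probe sets lay between the 79.0th and the 93.9th percentile of level. Psmb8, an immunoproteasome subunit, read 11.51 and 11.46 in Cre+ mice, against 11.60 and 11.55 in Cre- mice (-0.09, SE 0.04, limma adjusted p = 0.853). Tap1, the peptide transporter subunit, read 10.14 and 9.89 in Cre+ mice, against 9.83 and 9.98 in Cre- mice, with overlap. Psmb9, a second immunoproteasome subunit, differed by -0.00 (SE 0.07). Nlrc5, the activator of class I genes, differed by -0.03 (SE 0.13) in its brightest probe set, and its 19 probe sets ranged from -0.03 to 0.29. All 19 were above the Cre- mean in mouse 129 and 4 were in mouse 135. The class median was 0.05 in mouse 129 and -0.08 in mouse 135, and its sign turned to 0.05 when probe sets of a gene were averaged. Ly6e, a surface protein gene and the brightest of the list, read 13.59 and 13.55 in Cre+ mice, against 13.49 and 13.55 in Cre- mice. Whether the classes differ from each other was not tested.

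Both groups held 1 female and 1 male by the transcripts Xist and Kdm5d, so the comparison was also made within each sex, in 2 pairs that share no array. Mouse 129 exceeded mouse 131 (both female) in 39 of 42 genes, against 45.7% of all genes, with a median of 0.61. Mouse 135 exceeded mouse 137 (both male) in 33, against 48.5% of all genes, with a median of 0.19. Across the 42 genes, which are not independent replicates and share the array and the RNA of each mouse, the differences in the 2 pairs had a Pearson's r of 0.85 and a Spearman's rho of 0.79. Over all 19938 genes the coefficients were 0.48 and 0.18. Oasl2, Ifit1 and Iigp1 had the 3 largest differences in both pairs, 2.46, 2.09 and 2.52 in the female pair and 1.81, 1.14 and 1.05 in the male pair. In 8 genes the pairs differed in sign. Bst2 (0.61 and -0.33), Samd9l (0.58 and -0.24) and Zbp1 (0.75 and -0.20) were higher in the female pair only. With 1 Cre+ mouse of each sex, sex and mouse cannot be told apart.

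**Figure D4:**
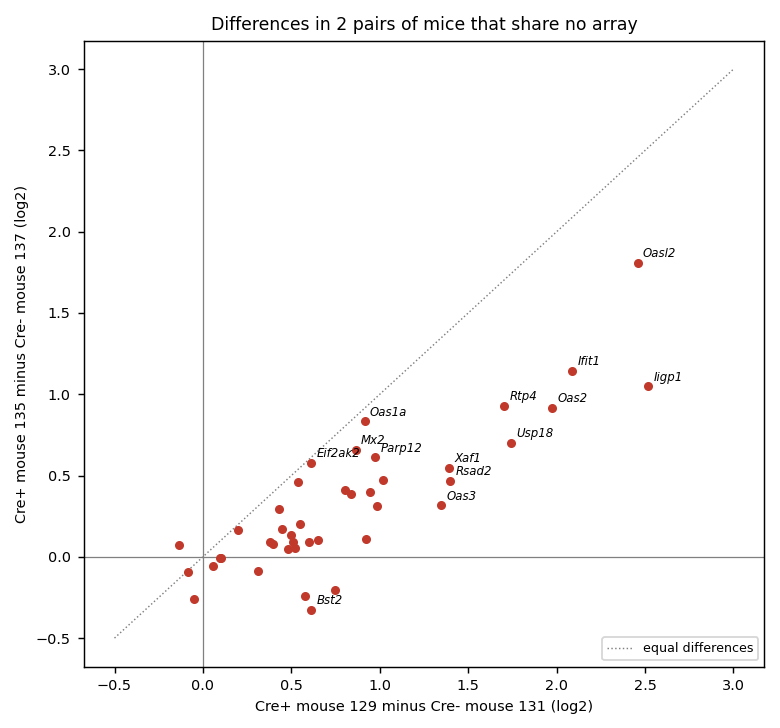
Difference between mouse 129 and mouse 131 (horizontal, log2) and between mouse 135 and mouse 137 (vertical, log2) for the 42 genes, 1 point per gene, with a dotted line of equal differences. Most points lie right of and below the line, and Oasl2, Ifit1 and Iigp1 lie farthest out on both axes.

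The response element in the promoter window was set beside the differences as a description. Of the 30 measured genes with a window, the 12 with a core had a median difference of 0.60 and the 18 without had 0.29. Both Cre+ values lay above both Cre- values in 11 of the 12 and in 11 of the 18, against 16.1% of all genes. The largest difference of the list, that of Oasl2, belonged to a gene without a core in its window, and Bst2, with 2 cores, had the smallest difference among those with one. With the GAS letters the medians were 0.30 in 10 genes with a match and 0.43 in 20 without, and with the Ikaros core they were 0.36 in 15 with a match and 0.32 in 15 without.

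The genes that make, receive and transmit the signal were compared from lists of 39 measured genes. Irf7, the amplifier of type I interferon responses, read 9.41 and 8.30 in Cre+ mice, against 7.87 and 7.64 in Cre- mice (1.10, SE 0.37, limma adjusted p = 0.178 in the restricted test). Irf9, a DNA-binding subunit of the complex at the response element, read 9.48 and 8.82 in Cre+ mice, against 8.49 and 8.54 in Cre- mice (0.64, SE 0.22). Both had mouse 129 above mouse 135, as the effector genes did. Stat2 differed by -0.09 (SE 0.10). Of 8 factors, 2 were higher and 0 lower at an unadjusted p under 0.05 in limma, against 4.12% and 2.74% of all genes.

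Of the 10 nucleic acid sensors, 2 were higher and 1 lower at that level, against 4.12% and 2.74% of all genes. Ifih1 (MDA5) and Dhx58 (LGP2), which detect double-stranded RNA, differed by 1.14 (SE 0.19) and 0.98 (SE 0.32), and Aim2, a sensor of cytosolic DNA, by -0.47 (SE 0.14). Of these 3, Ifih1 passed limma's restricted test (adjusted p = 0.0167). The 9 receptor chains and JAK kinases held 0 higher and 3 lower at that level (4.12% and 2.74% of all genes). Ifngr1, the ligand-binding chain for interferon gamma, read 11.53 and 11.47 in Cre+ mice, against 11.66 and 11.70 in Cre- mice (-0.19, SE 0.04). Ifnar2 differed by -0.19 (SE 0.05) and Il10rb by -0.37 (SE 0.14), while Ifnar1 differed by -0.11 (SE 0.07) without reaching that level. None of the 9 passed the restricted test. Among 6 signalling inhibitors, Socs3 differed by 0.44 (SE 0.15) and Ptpn2 by -0.14 (SE 0.05). The 6 interferon genes were all dim. Ifng read 6.63 and 6.56 in Cre+ mice, against 6.39 and 6.47 in Cre- mice, and Ifnb1 5.11 and 4.9998 in Cre+ mice, against 5.17 and 5.15 in Cre- mice. None of the 6 had an unadjusted p under 0.05 in limma.

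**Figure D5:**
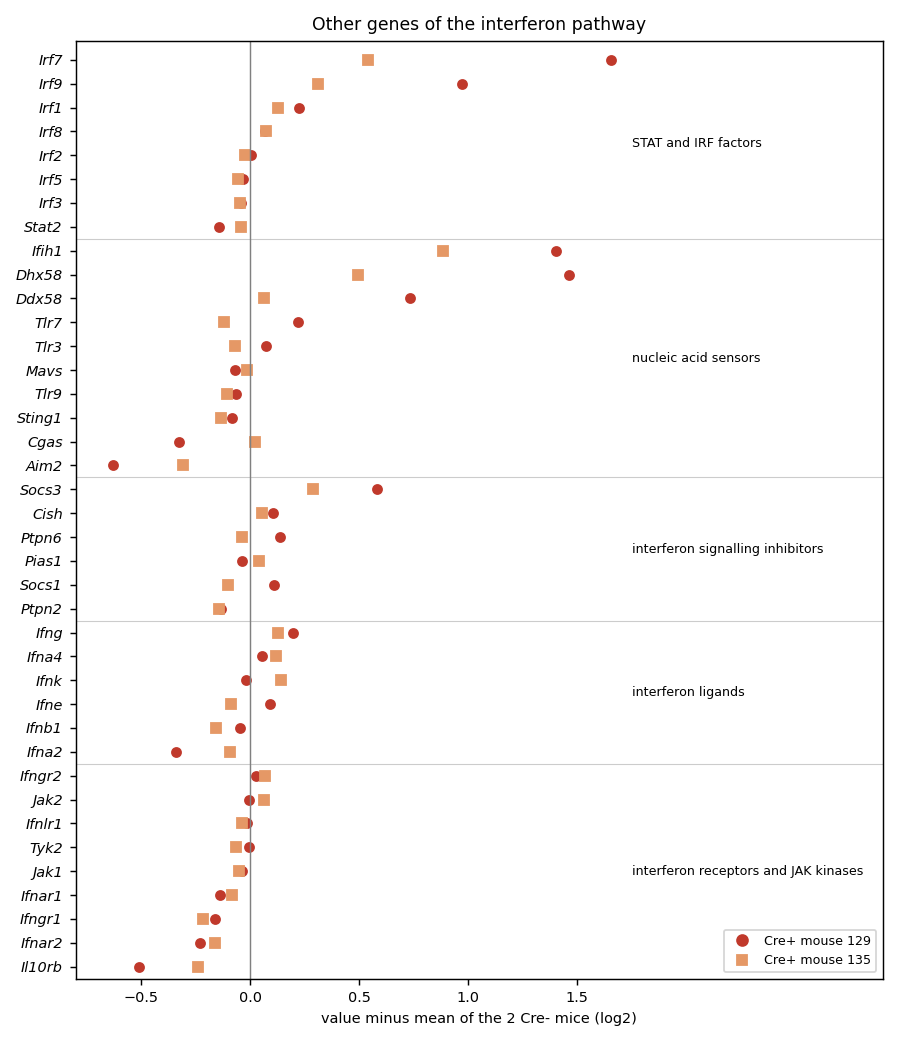
Value of each Cre+ mouse minus the mean of the 2 Cre- mice (log2) for 39 other genes of the interferon pathway, 1 row per gene, in 5 groups. Irf7, Irf9, Ifih1 and Dhx58 lie to the right in both mice, and the interferon and receptor genes lie near 0 or below it.

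The labelled cell type and possible other cells were read from marker lists. Values of all probe sets lay between 3.14 and 14.4, with array medians between 6.85 and 6.88, and arrays correlated at 0.994 to 0.997. T lineage genes were bright, led by Thy1 (13.12 to 13.23 over the 4 mice). Of the 11 measured, 6 were higher in the Cre+ mice at an unadjusted p under 0.05 in limma, against 4.12% of all genes. They were Cd3d (0.66), Cd3g (0.37), Cd3e (0.25), Dntt (0.21), Rag1 (0.38) and Ptcra (0.33). All of these but Ptcra passed limma's restricted test, which 0.953% of all genes passed as higher. Of the markers that a DN4 sort should lack at the surface, Cd8b1 and Il2ra (CD25) were nonetheless bright, at 11.50 to 11.91 and 10.71 to 11.58. Cd4 differed by 0.54, Cd44 by -0.42, Cd8b1 by -0.27 and Cd8a by -0.61, each with an unadjusted p under 0.05 in limma and none past the restricted test. Of the 6 such markers measured, 1 was thus higher and 3 lower at that level, against 4.12% and 2.74% of all genes. The part of these stage markers in the interferon differences was not tested. Ikzf1 read 12.06 and 11.99 in Cre+ mice, against 12.07 and 12.11 in Cre- mice. Where its probes lie relative to the deleted part was not analysed here, so these values check nothing about the deletion.

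Plasmacytoid dendritic cells, which make type I interferon and express Bst2, were listed with 6 measured markers, whose summed log2 level was 52.6 and 52.1 in the Cre+ mice and 52.7 and 52.5 in the Cre- mice. The defining marker Siglech lay between 6.12 and 6.21, and Ly6d was the brightest. Ccr9, at 10.21 to 10.97, differed by -0.64 (limma adjusted p = 0.00743 in the restricted test). Tcf4, at 9.49 to 9.90, differed by 0.39 (limma adjusted p = 0.0452 in the restricted test). Whether the signal of Ly6d, Ccr9 and Tcf4 came from the sorted T lineage cells or from other cells cannot be told apart in a bulk sample. The 7 macrophage markers summed to 42.2 and 42.8 in the Cre+ mice and to 41.5 and 41.2 in the Cre- mice. Of these, Lyz2 was the 1 gene past a threshold, with 7.56 and 7.59 in the Cre+ mice and 6.79 and 6.29 in the Cre- mice (1.04, SE 0.18, limma adjusted p = 0.0206 in the restricted test). Csf1r and Adgre1 stayed between 4.76 and 5.63, near the level of a silent gene, and Cd68 lay at 7.03 to 7.45. Natural killer markers summed to 47.1 and 46.9 in the Cre+ mice and to 48.4 and 48.1 in the Cre- mice. Gzma was the brightest (-0.19), and Nkg7 was lower (-1.04, limma adjusted p = 0.00114 in the restricted test). The other markers were dimmer in all mice. Ncr1, Klrb1c, Klrd1 and Eomes lay between 4.05 and 5.69, near the level of a silent gene, and Prf1 at 6.61 to 6.81. Conventional dendritic cell markers summed to 50.7 and 51.5 in the Cre+ mice and to 50.6 and 53.3 in the Cre- mice, with H2-Ab1 the brightest. H2-Aa and Cd74 were highest in Cre- mouse 137, at 7.73 and 8.28. None of the markers differed at an unadjusted p under 0.05 in limma. The 4 granulocytic markers summed to 23.3 and 23.4 in the Cre+ mice and to 23.7 and 23.3 in the Cre- mice, with Elane the brightest and none at that level. B cell markers summed to 36.9 and 37.4 in the Cre+ mice and to 37.2 and 38.9 in the Cre- mice, with Cd79b the brightest (0.25) and Cd79a at -0.35. Epithelial markers summed to 41.5 and 41.6 in the Cre+ mice and to 42.4 and 41.9 in the Cre- mice, with Epcam the brightest (-0.48). Mature and gamma delta T cell markers summed to 46.8 and 46.0 in Cre+ mice and to 47.7 and 47.2 in Cre- mice. Il7r was the brightest of them (-0.44), and S1pr1 was at -0.26. Of these 6 markers 0 had a higher mean in the Cre+ mice (45.9% of all genes). In 5 both Cre+ values lay below both Cre- values (20.3% of all genes). All these sums are of log2 values and do not measure numbers of cells. The part of other cells in the interferon differences was not tested.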

How the data were processed

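Total RNA of DN4 cells sorted from 4 mice was amplified in a labelling of 2 cycles and hybridised to Affymetrix arrays, 1 per mouse, per the labels' protocols. The deposited values are log2 expression values, made by RMA per the submitters' processing notes. Its version and the build were not given in the sources used here, and the input RNA stated in the labels is not tied to single mice. The number of arrays limits the precision. Of 35556 probe sets, 21789 had exactly 1 gene symbol in the platform annotation, 1621 had more and 12146 had none listed. A search of RefSeq by gene number found 21698 and changed 0 symbols. All probe sets were fitted with limma 3.58.1 in R 4.3.3 (eBayes with an intensity trend, 2 residual and 2.99 prior degrees of freedom), with Benjamini-Hochberg adjustment. Differences are Cre+ minus Cre- with limma's moderated SE. The restricted test used probe sets with 1 gene symbol, adjusted over these. The genes, classes and lists were chosen with earlier results of these data known, so no p-value is given for the list. Values per mouse are given for the 2 genes of each class with the smallest p and for those past a threshold, and a few others were added after their values were seen. Run on 5 simulated sets of 35556 independent probe sets for Cre+ against Cre-, with 200 changed, the test found 58.4% of 2-fold and 95.2% of 4-fold changes and made 6 false calls on average. The simulated spread was drawn from limma's prior and was alike in both groups. In Oasl2, Iigp1 and Ifit1 the SD was 1.07, 1.19 and 0.99 in Cre+ mice, against 0.61, 0.15 and 0.32 in Cre- mice. The simulated shares therefore do not carry over to such genes. Alternatives covered normalization, filters, the eBayes settings, array weights, sex as a block, averaged probe sets and each mouse left out, and 0 sample columns were unused.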

Additional observations from a re-analysis of the deposited data

How the results depend on the processing

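The median difference of the list lay between 0.37 and 0.39 under the 11 alternatives that kept all 4 mice, and genes with a higher mean numbered 34 to 39 there. Limiting the test to probe sets with 1 gene symbol gave 4 calls by limma against 0 over all probe sets. It gave 28 genes higher at an unadjusted p under 0.05 in limma against 19. The share of all genes at that level is given only beside the 19 (4.12%). Leaving out a mouse can only keep or raise the number of genes with groups apart, because fewer values are left to overlap. No share of all genes is given for those settings, so a rise in that number says nothing about the mouse left out or about robustness. With each mouse left out, the list's median ranged from 0.19 (without mouse 129) to 0.64 (without mouse 135), the genes with groups apart from 30 to 39, and those higher at an unadjusted p under 0.05 from 14 to 33. Combined with the restricted test, alternatives chosen after seeing the data, leaving out a mouse gave 4 to 27 calls (9 without mouse 131), with 0.633% to 2.2% of all probe sets tested called, sex as a block 20 (2.59%) and no intensity trend 1 (0.597%). The cause was not tested. Filtering to probe sets above the median left 37 genes and so moved the IFIT median to 0.83 and the IRG median to 0.61. Leaving out a mouse moved class medians over 0.10 to 0.47 for IFIT proteins, 0.29 to 0.71 for PARP and DTX3L, 0.26 to 0.79 for other induced genes, 0.72 to 1.33 for the OAS family, 0.10 to 0.62 for nucleic acid binding effectors, 0.25 to 1.33 for viperin, tetherin and allies, 0.69 to 1.70 for IRG, 0.35 to 1.10 for the ISG15 system, 0.38 to 0.73 for TRIM, 0.27 to 0.67 for MX and 0.13 to 0.51 for GBP. For antigen processing it ranged from -0.0827 to 0.0519, and it was 0.0535 with averaged probe sets, where Nlrc5 was at 0.11. Psmb9 became 0.00838 with centred arrays, 0.0186 with repeated quantile normalization and 0.00851 with cyclic loess. With a mouse left out, single genes changed sign within -0.0700 to 0.0670 for Psmb9, -0.20 to 0.14 for Nlrc5, -0.0115 to 0.24 for Tap1, -0.15 to 0.70 for Zbp1, -0.10 to 0.44 for Samd9l, -0.35 to 0.64 for Bst2 and -0.33 to 0.0178 for Samhd1. By mouse number, no paired analysis was possible because the labels give no number shared by both groups. Mice could be paired by sex as read from transcripts. With sex as a block 0 genes of the list passed limma's adjusted threshold over all probe sets, where 0 probe sets passed. No measure of background was used, so folds of dim genes such as Mx1, Mx2, Samhd1, Ifit3 and, in Cre- mice, Iigp1 are uncertain.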
